A study of Homo sapiens with 204 samples.

Results

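The members described here were 9 genes of the interferon response in human A549 lung carcinoma cells: OASL, IFIT1, IFIT2, IFIT3, IFIT5, ISG15, IRF1, IRF7 and MX1. They were chosen by name, and their Ensembl identifiers were matched to symbols. All 9 were found in both count tables, among 41379 genes in the RNA-seq table and 19217 in the Ribo-seq table. All 9 also passed the filter of at least 1 read count per 1e6 counts of the library (1 CPM) in at least 11 libraries, which 15526 and 12793 genes passed.

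In the study, 75 proteins of the ribosome were knocked down one at a time, each with siRNA at 40 nM for 24 h, and the cells were compared with cells given non-targeting siRNA. Each lysate was split into an aliquot for total RNA sequencing (RNA-seq) and an aliquot for sequencing of ribosome-protected fragments (Ribo-seq, footprints), after a short treatment with cycloheximide. Each assay held 91 knockdown libraries and 11 controls. A set of 38 libraries has numbered titles, with 2 libraries for each of 16 targets and 6 controls. The other 64 have unnumbered titles, with 1 library for each of 59 targets and 5 controls. All 11 controls were themselves transfected with siRNA. A response shared by every transfected culture therefore cannot be seen in these comparisons, since untransfected cells are not analysed here. A549 is 1 tumour line with a functional p53 gene, which limits it as a model of normal lung epithelium.

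Cells detect double-stranded RNA, including some siRNA, through the sensors RIG-I, MDA5, PKR and endosomal Toll-like receptors. Adaptors then activate IRF3, IRF7 and NF-kB, which switch on the genes of type I and type III interferons. Secreted interferon binds its receptors, and JAK kinases activate a complex of STAT proteins and IRF9 that binds the interferon-stimulated response element (ISRE) in its target promoters. Interferon gamma acts through a STAT dimer on a different element, GAS. Among the members, IRF1 and IRF7 are transcription factors. IFIT1, IFIT2, IFIT3 and IFIT5 bind foreign RNA or form complexes that do, and are among the most inducible genes of the response. ISG15 encodes a ubiquitin-like modifier, MX1 a dynamin-like GTPase that blocks viruses, and OASL a relative of the oligoadenylate synthetases that promotes RIG-I signalling.

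The response elements that the members share are shown first, because they are the sequence feature that unites most of these genes. RefSeq promoters of GRCh38.p14, spanning 250 bases before to 50 after a start site, were given for 6 of the 9 members. OASL, IFIT2 and IRF7 had no entry. The ISRE core was searched as GAAA, any 2 bases and GAAA, on both strands, and the GAS element as TTCNNNGAA likewise. An ISRE core and a GAS can overlap, and did in MX1. Of 35116 promoters in the table, 3.57% held an ISRE core and 7.66% held a GAS. Upstream of the start alone, the shares were 3.02% and 6.57%. An ISRE core lay upstream of a start site in IFIT1, IFIT3, IFIT5, ISG15 and MX1, and a GAS lay upstream in IRF1 and MX1. The shares are per promoter, whereas MX1 had 3 promoters, of which only promoter 3 held an upstream match. A match describes letters only. Each window below reads 5′ to 3′ on the gene's strand, lies wholly upstream of the start, and has the matches in capitals.
IFIT1, ISRE, chr10:89392495-89392541, plus strand: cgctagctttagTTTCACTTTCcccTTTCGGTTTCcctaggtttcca
IFIT3, ISRE, upstream of its second start, chr10:89332423-89332499, plus strand: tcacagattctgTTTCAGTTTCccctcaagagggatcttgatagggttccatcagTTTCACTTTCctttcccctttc
IFIT5, ISRE, chr10:89414511-89414567, plus strand: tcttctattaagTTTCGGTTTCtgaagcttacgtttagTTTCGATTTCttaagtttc
ISG15, ISRE, chr1:1013372-1013411, plus strand: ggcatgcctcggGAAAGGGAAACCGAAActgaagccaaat
MX1, ISRE, promoter 3, chr21:41431842-41431875, plus strand: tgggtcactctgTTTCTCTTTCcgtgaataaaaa
IRF1, GAS, chr5:132490877-132490909, minus strand: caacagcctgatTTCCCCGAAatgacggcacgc
The windows of IFIT1, IFIT3, IFIT5 and ISG15 held 2 cores each, and the MX1 window held 1. The promoter of IRF1 held no ISRE core and 1 GAS, so the element found there was not the one found in the others. The genes lie at 12:121017761-121039246 (OASL), 10:89392623-89406487 (IFIT1), 10:89302046-89309271 (IFIT2), 10:89327997-89340968 (IFIT3), 10:89414568-89420997 (IFIT5), 1:1013497-1014540 (ISG15), 5:132481609-132490773 (IRF1), 11:612555-615950 (IRF7) and 21:41420558-41459214 (MX1) in the same RefSeq build. The 4 IFIT spans overlap LIPA in that annotation, and the strand setting of the counting is not among the given sources, so reads of LIPA may have been shared with them.

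Totals per library, in units of 1e6 counts, ran from 18.8 to 63.57 in RNA-seq (median 27.81) and from 7.771 to 57.22 in Ribo-seq (median 23.81). Where a gene had no count in the least deep library, its level could still be up to 0.160 CPM (RNA-seq) or 0.386 CPM (Ribo-seq), for counting error only. In such bulk samples, fewer cells and less RNA per cell cannot be told apart. The mRNA of the targeted protein was below every control in 75 of 75 targets, at 1.55% to 16.2% of the control level (median 3.69%). Of 12 markers of A549 and airway epithelium, 11 passed the filter in each assay. Blood and immune markers summed to 23.1 to 41.3 CPM in control RNA-seq libraries and 18.7 to 59.4 CPM in knockdowns, mainly from CD68, while PTPRC and LYZ were at or near 0. The marker HBB had a footprint level of 227 CPM in 1 library of RPS26 and no more than 0.0515 CPM in any knockdown RNA-seq library; its part in the results was not tested.

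All 9 members were expressed at low to moderate levels in the controls. In CPM scaled by the trimmed mean of M values (TMM), control RNA-seq medians in the numbered set were 0.899 for OASL, 0.790 for IFIT1, 1.84 for IFIT2, 4.35 for IFIT3, 19.2 for IFIT5, 2.12 for ISG15, 35.6 for IRF1, 3.88 for IRF7 and 1.08 for MX1. These are not corrected for length, so they do not rank the genes. The interferon ligands themselves were nearly absent. Of the 12 listed, 9 had a row in each table and none passed the filter in either assay. Their summed level was 0 to 0.830 CPM in control RNA-seq libraries and 0 to 1.01 CPM in knockdown libraries. Most of that came from IFNE, a type I interferon made constitutively by some epithelia, which reached 1.01 CPM in knockdowns and 0.830 CPM in controls. IFNB1, the first interferon made after RNA sensing, was at 0 in every control RNA-seq library, with a highest value of 0.0504 CPM in a knockdown. Those of IFNA2, IFNA5, IFNA13, IFNK, IFNW1, IFNL1 and IFNL3 reached 0.0562, 0.0432, 0.0474, 0.0796, 0.0315, 0.0914 and 0.0498 CPM. In Ribo-seq, the highest knockdown level of any ligand was 0.530 CPM, in IFNL3, and that of IFNB1 was 0.158 CPM. The other ligands with a Ribo-seq row, IFNA1, IFNA2, IFNK, IFNE, IFNG, IFNL1 and IFNL2, reached 0.0477, 0.0690, 0.249, 0.374, 0.403, 0.219 and 0.0398 CPM there.

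**Figure D1:**
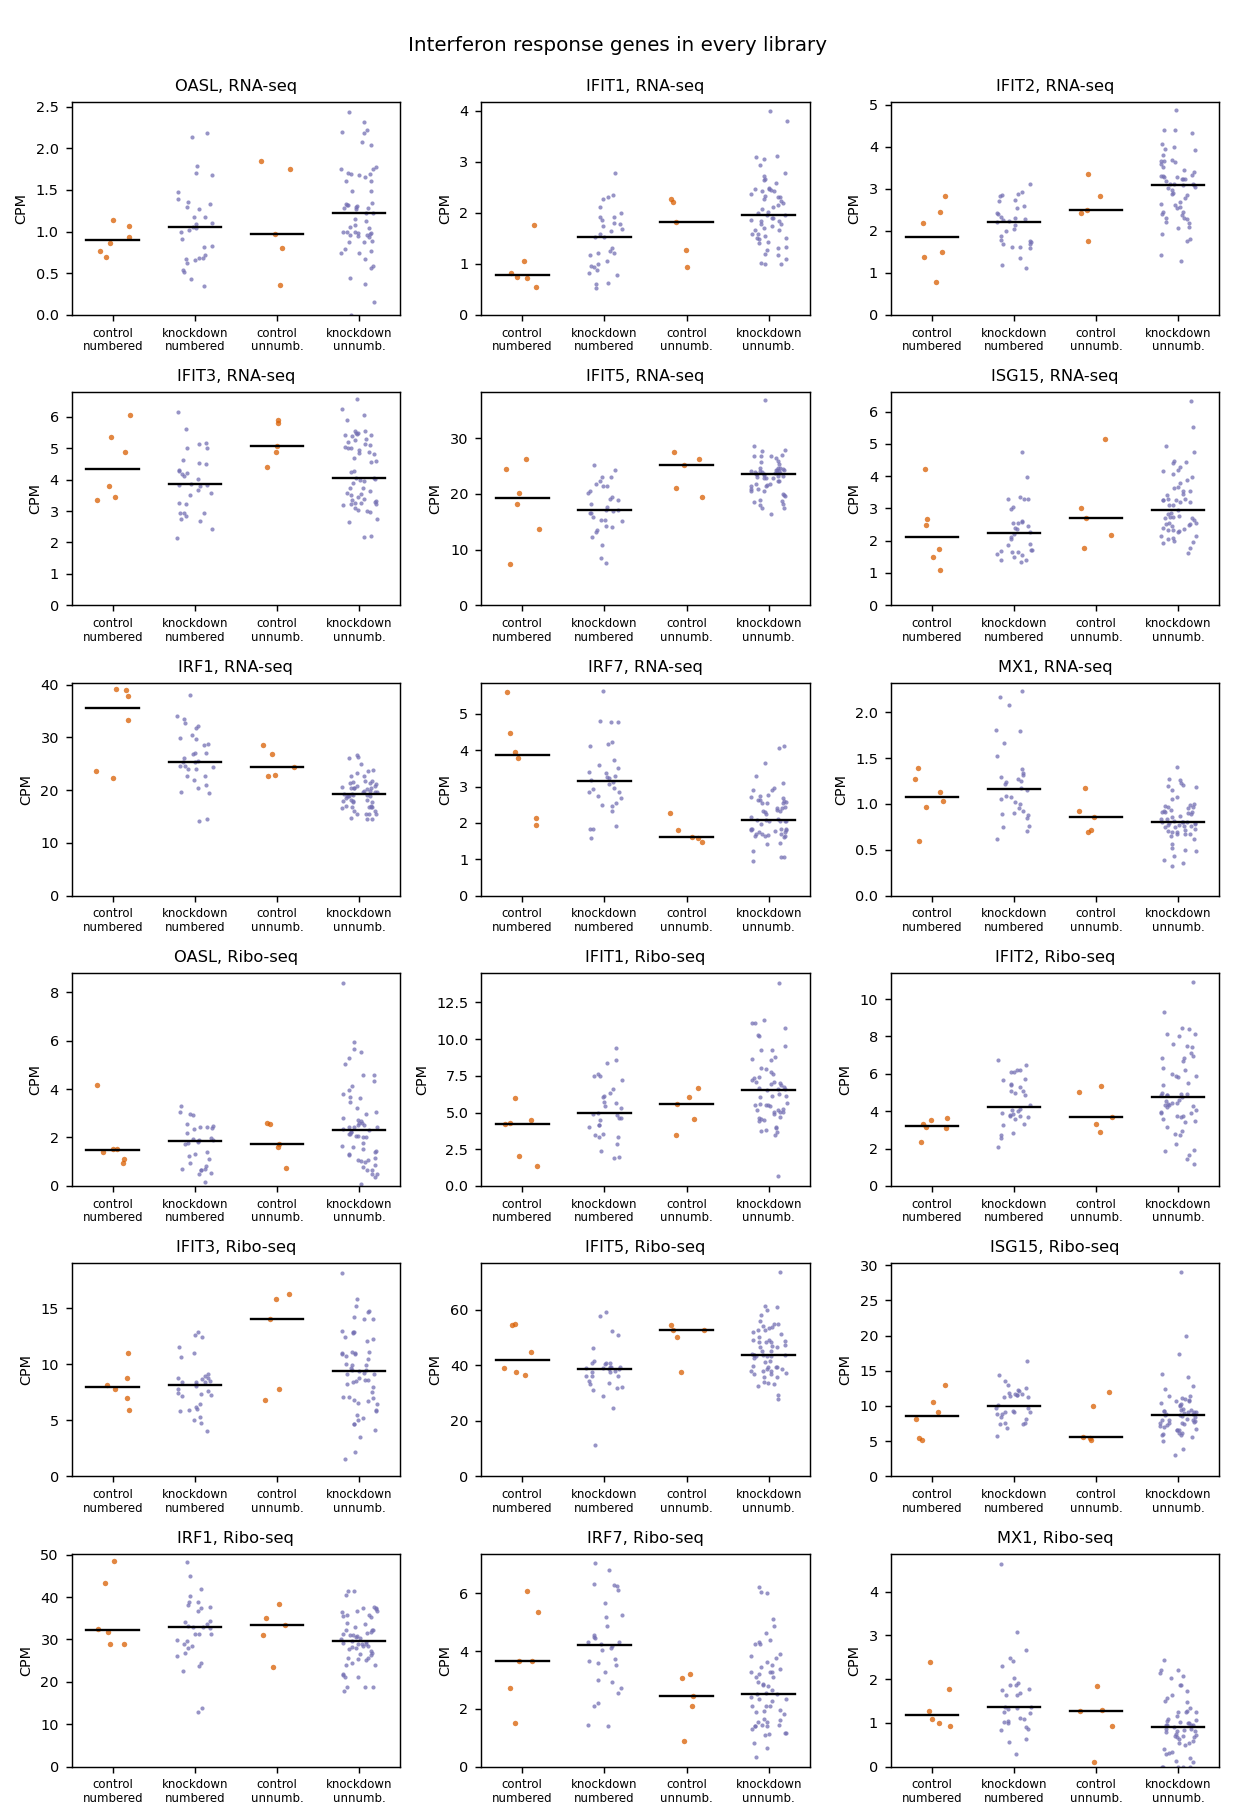
Level of each of the 9 genes in every library, in TMM-scaled CPM on a linear axis starting at 0, for RNA-seq (upper 9 panels) and Ribo-seq (lower 9 panels). Orange points are controls, purple points are knockdowns, black bars are medians, and libraries are split by numbered and unnumbered titles; the groups overlap in every panel, and IRF1 mRNA in the unnumbered set shows the clearest shift, from a control median of 24.3 to a knockdown median of 19.2 CPM.

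The first comparison asked whether cells lacking a ribosomal protein differed from control cells in these genes. IRF1 mRNA was lower in knockdown cells and IFIT1 mRNA was higher; the other 7 members were not called. In the unnumbered set, the 5 controls had 24.3, 26.8, 22.6, 28.7 and 22.9 CPM of IRF1, and the 59 knockdowns ran from 14.5 to 26.7 with a median of 19.2 CPM. In the numbered set, the 6 controls had 38.96, 37.9, 33.4, 39.2, 22.2 and 23.6 CPM, and the 32 knockdown libraries ran from 14.2 to 38 with a median of 25.4. The groups overlapped in both sets, and the controls 21_1 and 21_2 lay well under the other 4 numbered controls. The log2 fold change of IRF1 over all libraries was -0.35 ± 0.08 (SE; 91 knockdown and 11 control libraries; edgeR quasi-likelihood test, adjusted p = 0.000531). It was -0.32 ± 0.14 (adjusted p = 0.130) within the numbered set and -0.35 ± 0.10 (adjusted p = 0.0112) within the unnumbered set, by the same edgeR test. The call was kept when each of the 11 controls was left out in turn. Libraries that share a target counted as separate in this model, so its SE may be too small.

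IFIT1 mRNA, which encodes a protein that binds RNA with unmethylated caps, was 0.553, 0.715, 1.75, 0.751, 1.06 and 0.830 CPM in the numbered controls, and 0.534 to 2.79 with a median of 1.53 CPM in their knockdowns. In the unnumbered set, the controls had 2.28, 1.27, 1.81, 2.21 and 0.947 CPM and the knockdowns 0.991 to 4.00 with a median of 1.963 CPM. The groups overlapped widely. The log2 fold change was 0.45 ± 0.17 (SE; edgeR, adjusted p = 0.0383). It was 0.64 ± 0.28 within the numbered set (edgeR, adjusted p = 0.127) and 0.27 ± 0.22 within the unnumbered set (edgeR, adjusted p = 0.432). The IFIT1 call was lost when control 11_1, 11_2, 20_2, 21_2, 3 or 9 was left out, with a lowest log2 value of 0.38 (edgeR, adjusted p = 0.0963) without control 11_1.

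These 2 calls of 9 compare with 30.6% of all 15526 genes tested, of which 13.4% were higher and 17.2% lower. The remaining members had log2 fold changes of 0.19 ± 0.22 for OASL, 0.22 ± 0.13 for IFIT2, -0.24 ± 0.11 for IFIT3, -0.06 ± 0.10 for IFIT5, 0.06 ± 0.15 for ISG15, 0.03 ± 0.14 for IRF7 and 0.09 ± 0.14 for MX1 (SE). The median over the 9 was 0.06, and over all genes tested -0.03. The 95% interval of ISG15, among the genes most induced by interferon, ran from -0.24 to 0.36, and that of MX1 from -0.19 to 0.37.

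Footprints gave no call in the same comparison. By edgeR, 0 of 9 members passed, against 26.7% of all 12793 genes (13.2% higher, 13.5% lower); DESeq2 also called 0, and 2 members had an unadjusted p under 0.05. These were IFIT1, at 0.41 ± 0.19 on the log2 scale (edgeR, adjusted p = 0.0876), and IFIT2, at 0.42 ± 0.18 (edgeR, adjusted p = 0.0749). The columns of each table restart their alphabetical order, which splits them into 3 runs. With these runs in place of the title set as a model term, IFIT1 footprints passed at 0.47 ± 0.19 (edgeR, adjusted p = 0.0470). Within the numbered set alone, IFIT2 footprints passed at 0.52 ± 0.19 (edgeR, adjusted p = 0.04595). IRF1 footprints had a log2 fold change of -0.14 ± 0.10 (edgeR, adjusted p = 0.343). Translation efficiency, the change of footprints relative to mRNA, was fitted as an assay-by-group interaction. It gave 0 calls among the 9 members, 0 with an unadjusted p under 0.05, and log2 values from -0.14 for IFIT5 to 0.19 for ISG15. The same edgeR test called 0.353% of the 12480 genes tested, 0.329% higher and 0.024% lower. Both assays came from 1 lysate per sample, and with that lysate as a block (limma on the footprint-minus-mRNA difference of each lysate) the members again gave 0 calls, while all genes gave 490 in place of 44.

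**Figure D2:**
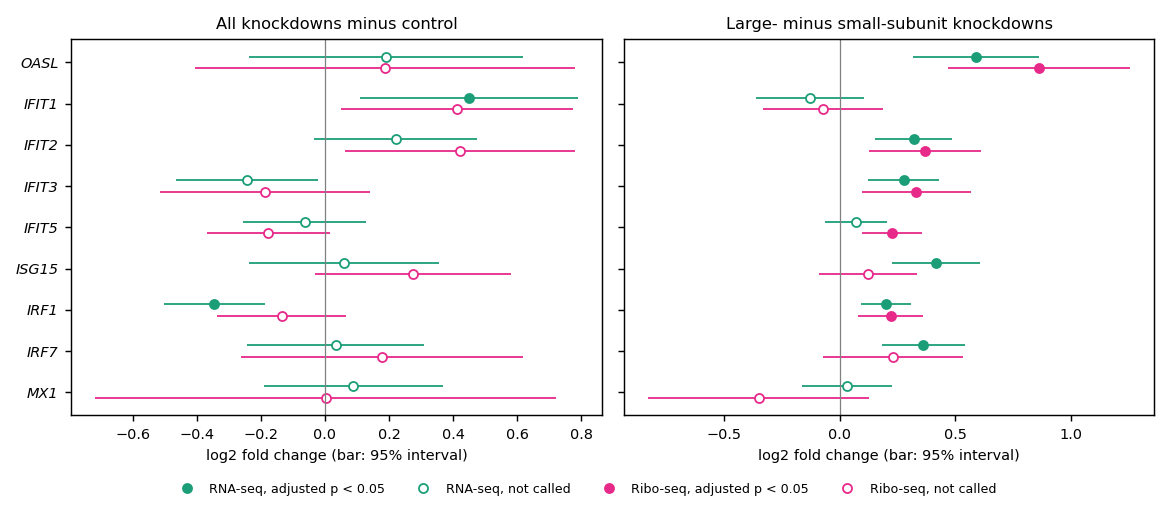
Log2 fold change of each gene with its 95% interval, for all knockdowns minus controls (left) and for large-subunit minus small-subunit knockdowns (right); green is RNA-seq, pink is Ribo-seq, and filled points passed an adjusted p of 0.05 in edgeR. On the left, the filled points are IFIT1 and IRF1 mRNA; on the right, 6 RNA-seq and 5 Ribo-seq points are filled and all lie above 0.

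Genes around the members in the pathway were read from lists. Of all genes tested, 30.6% were called in RNA-seq (13.4% higher, 17.2% lower) and 26.7% in Ribo-seq (13.2% higher, 13.5% lower). Of 12 genes for interferon receptors and JAK-STAT signalling, 12 were tested in RNA-seq, 1 rose and 2 fell. IFNAR2 fell by 0.34 and IFNAR1 by 0.29 on the log2 scale; they encode the 2 chains of the type I receptor. IFNGR1, a chain of the interferon gamma receptor, rose by 0.35. In footprints 1 of the 12 rose and 3 fell. IFNAR2 and IFNAR1 fell there by 0.46 and 0.32 and IFNGR2, the other chain of the interferon gamma receptor, by 0.37, while IFNGR1 was not called (0.14). The 1 that rose, by 0.57, was IRF9, the DNA-binding partner of STAT proteins; IFNGR2 and IRF9 were chosen after their values were seen.

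Among 18 RNA sensors and adaptors, 14 were tested in RNA-seq, 1 rose and 4 fell. TRAF3, an adaptor downstream of MAVS, rose by 0.71 ± 0.09. IRF3 fell by 0.36 and CGAS, the sensor of cytosolic DNA, fell by 0.48. Of 67 other interferon-stimulated genes, 53 were tested, with 4 higher and 9 lower, beside 13.4% higher and 17.2% lower of all genes. Their median was -0.01, beside -0.03 over all genes. TRIM22, an antiviral ubiquitin ligase that is also a known p53 target, rose by 1.25 ± 0.29. APOL6 fell by 0.40 and PARP12 by 0.27. Of 10 other IRF factors, 8 were tested and IRF3 was the 1 that fell. Of 10 inhibitors of the response, 2 fell: SOCS1, a suppressor of JAK kinases, by 0.43, and TRIM27 by 0.17. None of 10 tested NF-kB cytokines and targets passed in edgeR, with 2 at an unadjusted p under 0.05. For contrast, 18 of 20 p53 targets rose and none fell, with a median log2 fold change of 1.11.

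The second comparison asked whether the members depended on which subunit the lost protein belongs to. Of the 9 members, 6 in RNA-seq and 5 in Ribo-seq were called, each higher in large-subunit than in small-subunit knockdowns. Of all genes, 31.6% were called in RNA-seq (15.2% higher, 16.4% lower in large-subunit knockdowns) and 22.1% in Ribo-seq (10.9% higher, 11.2% lower). The median over the members was 0.28 in RNA-seq and 0.23 in Ribo-seq, against -0.01 for all genes in each.

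OASL had the largest difference among the 9. In RNA-seq, 48 large-subunit libraries ran from 0 to 2.32 with a median of 1.32 CPM, and 43 small-subunit libraries from 0.158 to 2.44 with a median of 0.910 CPM. Footprint levels ran from 0.647 to 8.38 (median 2.55) and from 0.0672 to 3.06 (median 1.53). The groups overlapped in both assays. The model of the subunits had no term for the target, so libraries that share a target counted as separate. Its SE and p values may therefore be too small, most of all within the numbered set. The log2 difference was 0.59 ± 0.14 in RNA-seq (edgeR, adjusted p = 0.000476) and 0.86 ± 0.20 in Ribo-seq (edgeR, adjusted p = 0.000728). In RNA-seq it was 0.72 within the numbered set and 0.54 within the unnumbered set, and OASL was called in each.

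IFIT2 was higher by 0.32 ± 0.08 in RNA-seq and 0.37 ± 0.12 in Ribo-seq, and IFIT3, its partner in the IFIT complex, by 0.28 ± 0.08 and 0.33 ± 0.12. IRF1 was higher by 0.20 ± 0.06 and 0.22 ± 0.07. ISG15 and IRF7 passed in RNA-seq, at 0.41 ± 0.10 and 0.36 ± 0.09, and had 0.12 ± 0.11 and 0.23 ± 0.15 in Ribo-seq. IFIT5 passed in Ribo-seq, at 0.23 ± 0.07, and had 0.07 ± 0.07 in RNA-seq. Within the numbered set, which holds 4 large-subunit and 12 small-subunit targets, OASL and IRF7 were called in RNA-seq. Within the unnumbered set, OASL, IFIT2, IFIT3, ISG15 and IRF1 were called in RNA-seq and OASL, IFIT2 and IRF1 in Ribo-seq. IFIT1 and MX1 were not called. IFIT1 changed sign between the sets: its log2 difference was -0.58 ± 0.23 in RNA-seq and -0.62 ± 0.22 in Ribo-seq (edgeR, adjusted p = 0.0494) within the numbered set, and 0.09 ± 0.13 and 0.17 ± 0.15 within the unnumbered set.

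The surrounding lists showed which inflammatory genes differed between the same groups. Of 10 NF-kB cytokines and targets tested in RNA-seq, 8 were higher in large-subunit knockdowns and none lower, with a median of 0.60. In Ribo-seq it was 10 of 11, with a median of 0.72. IL6, the acute-phase cytokine, was higher by 1.25 ± 0.19 in RNA-seq, and CXCL1, a neutrophil chemokine, by 0.66 ± 0.09. TNFAIP3, which encodes the feedback inhibitor A20, was higher by 0.57 ± 0.09; these genes were chosen after their values were seen. Other interferon-stimulated genes gave 16 higher and 6 lower of 53 in RNA-seq, and 12 higher and 1 lower of 54 in Ribo-seq. Over all genes, 15.2% were higher and 16.4% lower in RNA-seq, and 10.9% and 11.2% in Ribo-seq. Among p53 targets, 9 of 20 were higher and none lower in each assay. CD68, on the list of blood and immune markers, was higher by 0.64 ± 0.06 in RNA-seq, and COL1A1, a fibroblast marker, was lower by 0.67 ± 0.13. HBB footprints were lower by 4.43 ± 0.82. Of 5203 HBB footprint counts over all libraries, 3291 came from 1 library of RPS26, a small-subunit target. The knockdown median was 0 CPM. The part of these genes in the members' differences was not tested.

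The 16 targets with 2 libraries each allowed a test per target. Of 144 pairs of member and target, 19 were called in RNA-seq and 27 in Ribo-seq. Of all gene-by-target pairs, 23.3% were called in RNA-seq (10.8% higher, 12.5% lower) and 29.3% in Ribo-seq (13.9% higher, 15.4% lower), so neither count exceeded its background. The share of all genes called was smallest in RPL29 knockdown, at 10.1% in RNA-seq and 13.1% in Ribo-seq, and no member was called there. No target called more than 3 members in RNA-seq. Leaving out either library of a target in turn kept the direction of all 19 and all 27 calls, but 2 of the 19 and 4 of the 27 passed both times; a lone library was assumed to vary like the other groups.

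IRF1 was among the members called lower. IRF1 mRNA fell by 0.68, 0.58, 0.56 and 0.48 on the log2 scale in RPS16, RPS9, RPS12 and RPS3 knockdowns. The RPS16 libraries had 20.99 and 19.5 CPM, below every numbered control. Both libraries lie outside the run of columns of the other numbered targets, as do controls 21_1 and 21_2, the lowest controls for this mRNA. Run and knockdown were not separated in this fall. IRF1 footprints fell by 0.61, 0.47 and 0.44 in RPS7, RPS10 and RPS15A knockdowns. None of these IRF1 calls passed both times when either library was left out.

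In RPL15 knockdown, each member that was called was higher. OASL mRNA was 2.19 and 2.14 CPM there, above all numbered controls (0.695 to 1.14 CPM), a log2 fold change of 1.23 ± 0.29 (edgeR, adjusted p = 0.00191) that passed when either library was left out. ISG15 was called higher in both assays, by 0.79 and 0.88, with 3.29 and 4.75 CPM in RNA-seq and 16.4 and 14.4 CPM in Ribo-seq. The controls reached 4.21 CPM of ISG15 in RNA-seq, in control 20_2, so the groups overlapped there. The RNA-seq call of ISG15 was lost when either library of RPL15 was left out (0.50 and 1.03), and the Ribo-seq call was lost when 1 of the 2 was (0.77 to 0.97 over both). IFIT3 footprints were 12.6 and 12.8 CPM, above the highest control of 11.03 CPM, a change of 0.66 ± 0.18 that passed when either library was left out.

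IFIT1 mRNA was called higher in 6 targets, all of the small subunit. Among them, RPS15, RPS9, RPS10, RPS7 and RPS15A had log2 fold changes from 1.05 to 1.19. The test of the subunits within these 16 targets gave an adjusted p of 0.0902 (edgeR) for IFIT1 mRNA. In RPS15 knockdown, IFIT1 was 2.34 and 1.92 CPM, both above the highest control of 1.75 CPM. IFIT1 footprints passed in 3 targets, among them RPS9 and RPS15, by 1.01 and 1.07. Of these IFIT1 calls, none passed both times when either library was left out. IFIT2, which promotes apoptosis when overexpressed, had no call in RNA-seq but 8 in Ribo-seq, all higher, by 0.70 to 0.93. They included RPL21, RPL24, RPS9, RPS10, RPS15, RPS15A and RPS26. Controls had 2.35 to 3.61 CPM of IFIT2 footprints, and RPS9 knockdown had 6.19 and 5.72 CPM, the 1 call of these 8 that passed both times. The IFIT2 control mRNA levels were spread more widely, from 0.789 to 2.83 CPM.

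OASL footprints fell by 1.5 in RPS3 knockdown, with 0.547 and 0.671 CPM against 0.954 to 4.17 CPM in controls. The top value was control 11_2, and the other numbered controls reached 1.53 CPM. This call was lost when either RPS3 library was left out (log2 values of -1.37 and -1.67). MX1 footprints fell by 1.66 in RPS16 knockdown, with 0.2875 and 0.564 CPM against 0.927 to 2.38 CPM in controls. The MX1 call was lost when 1 of the 2 libraries was left out (-2.24 and -1.295 over both). IFIT5 footprints fell by 1.14 ± 0.22 in RPS16 knockdown and passed both times, but the libraries differed, at 11.4 and 28.98 CPM. Those 2 libraries stand in different runs of columns of the table, both apart from the run of the other numbered targets.

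Differences among the 16 targets were tested on the target means, while the controls still entered the estimate of the spread. They were called for OASL, IFIT1, IFIT3, ISG15, IRF1 and MX1 in RNA-seq, which is 6 of 9 beside 73.6% of all genes. In Ribo-seq they were called for 8 of 9, all but ISG15 (adjusted p = 0.0503, edgeR), beside 78.8% of all genes.

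For the 59 targets with 1 library there is no replicate check and no test, so values are described. A ratio is the log2 of CPM plus a pseudocount of 0.5, minus the mean of that value over the controls of the same title set, which understates changes of low genes. Over all 75 targets, the median RNA-seq ratio ran from -0.36 for IRF1 to 0.25 for IFIT2. IRF1 was below 0 in all but 5 targets, and below every control of its set in 52 of 75. For the unnumbered targets it was 50 of 59, where 27.6% of all gene-by-target pairs lay below all controls. For the numbered targets it was 2 of 16, beside 11.3% of all pairs. IRF1 footprints lay below every control in 8 of 59 unnumbered targets, beside 25.3%, and in 4 of 16 numbered targets, beside 16%. IFIT3 mRNA lay below every control in 32 of 59 unnumbered targets and in 34 of all 75, a count that became 17 when all 11 controls were used. IFIT1 and IRF7 mRNA lay above every control in 21 and 26 of 59, beside 26.3% of all pairs. The IRF7 count became 0 when all 11 controls were used, since numbered controls had up to 5.60 CPM of IRF7 and unnumbered controls up to 2.26 CPM.

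Changes in RNA-seq were mostly small. Ratios over 1 or under -1 occurred in 2 targets each for OASL, IFIT1, IFIT3 and IRF7, in 1 each for ISG15 and IRF1, and in none for IFIT2, IFIT5 and MX1. OASL mRNA had 0 counts in the RPL35A library, which allows a level of up to 0.151 CPM, beside 0.361 to 1.85 CPM in the 5 controls. Its footprints in that lysate were 0.799 CPM, within the control range. RPS14 knockdown had low OASL in both assays, with 4 counts (0.158 CPM) and 2 counts (0.0672 CPM). The next lowest OASL mRNA was in RPS21 knockdown, at 0.366 CPM. The highest OASL mRNA was in RPS25, RPL15 and RPL41 knockdowns, at 2.44, 2.16 and 2.32 CPM.

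Among the IFIT genes, IFIT1 mRNA was highest in RPL13A (4.00 CPM) and RPS27 (3.79 CPM) knockdowns, and RPL19 and RPL11 (0.991 and 1.01 CPM) were among the lowest. IFIT2 mRNA was highest in RPL17, RPLP0 and RPL7 (4.86, 4.40 and 4.39 CPM) and lowest in RPSA, RPS21 and RPL11 (1.28, 1.42 and 1.75 CPM). IFIT3 was lowest in RPS27L and RPL28 (2.16 and 2.21 CPM) and highest, at ratios of 0.25 to 0.31, in RPL36, RPL15 and RPL23. IFIT5, which binds RNA with a triphosphate end, had the smallest SD of the 4 in mRNA over the unnumbered targets: RPL23 was highest at 36.8 CPM and RPL17 lowest at 16.4 CPM. Over all targets, RPS15 and RPS7 were also among its 3 lowest and RPL29 among its 3 highest.

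ISG15 mRNA was highest in RPL8, RPL9 and RPL15 (6.34, 5.54 and 4.02 CPM) and lowest in RPL36A, RPL23 and RPL22 (1.61, 1.78 and 1.93 CPM). IRF7 was highest in RPL36A, RPL37A and RPL38 (4.11, 4.06 and 3.64 CPM) and RPS15A was among its 3 lowest by ratio. IRF1 mRNA was among the lowest in RPL13A and RPS29 (14.5 and 14.6 CPM) and, by ratio, among the highest in RPL7 and RPL24 (26.7 and 33.8 CPM). MX1 was lowest in RPL31, RPS14 and RPL5 (0.324, 0.355 and 0.388 CPM) and RPS6 (1.40 CPM) was among its 3 highest by ratio.

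Footprint ratios spread more widely than mRNA ratios. The SD over the 59 targets was 0.80 for OASL footprints and 0.49 for OASL mRNA, 0.62 and 0.34 for IFIT3, and 0.68 and 0.26 for MX1. The SD that counting alone would give on the same scale was 0.16 for OASL footprints and 0.10 for IFIT3 footprints. The unnumbered controls varied too, with an SD of 0.54 for OASL, 0.57 for IFIT3 and 0.75 for MX1 footprints.

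High footprint levels were seen as follows. ISG15 footprints were 29.01 CPM in RPS27 knockdown, 20.0 CPM in RPLP2 and 17.4 CPM in RPLP0, above the unnumbered controls of 5.18 to 11.95 CPM. ISG15 mRNA in RPS27 and RPLP2 knockdowns was 3.54 and 3.89 CPM, within the control range of 1.76 to 5.14 CPM. OASL footprints reached 8.38 CPM in RPL37, 5.95 CPM in RPL10A and 5.64 CPM in RPLP0 knockdowns, above a control maximum of 2.59 CPM. IFIT2 footprints were highest in RPL37, RPLP0 and RPL37A knockdowns (10.9, 9.31 and 8.44 CPM). IFIT1 footprints were highest in RPL30 knockdown, at 13.9 CPM, followed by ratio by RPS15 and RPL9.

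At the low end, IFIT1 footprints were 0.658 CPM (16 counts) in RPL5 knockdown, against 3.47 to 6.65 CPM in controls, while IFIT1 mRNA there was 1.16 CPM, within the control range of 0.947 to 2.28. MX1 had 0 footprint counts in RPL5, RPL23 and RPL23A knockdowns, and the lowest control had 0.101 CPM. At the depth of these libraries, 0 counts does not tell them apart from that control. IFIT3 footprints were lowest in RPS27L, RPLP2 and RPS29 knockdowns (1.52, 2.204 and 3.49 CPM, against 6.81 to 16.2 CPM in controls). IFIT2 footprints were lowest in RPS13, RPS27L and RPS2 (1.16, 1.42 and 1.66 CPM). In the RPS27L lysate IFIT2 mRNA was 3.24 CPM, above the control median of 2.49, and IFIT3 mRNA was 2.16 CPM, below every control of the unnumbered titles. The lowest IRF7 footprints were in RPL11, RPS29 and RPL32 (0.347, 0.634 and 0.822 CPM) and the highest in RPS27, RPL5 and RPL31 (6.23, 6.04 and 6.01 CPM).

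By ratio, other targets also stood at the ends of the footprint order. RPS18 followed RPS14 at the low end of OASL, and RPS19 and RPL37A followed RPL5 for IFIT1. RPL9 and RPL15 were highest for IFIT3, at ratios of 0.65 and 0.64. IFIT5 was lowest in RPS16, RPS18 and RPL17 and highest in RPL23, RPL15 and RPL28 knockdowns. ISG15 was lowest in RPL23A, RPS3A and RPS14 knockdowns (3.08, 3.82 and 5.07 CPM). RPS27L and RPL28 were among the 3 lowest for IRF1, and RPL36 and RPL32, at ratios of 0.38 and 0.37, among the 3 highest. RPL7A and RPS13, at ratios of 1.01 and 0.90, were among the 3 highest for MX1.

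**Figure D3:**
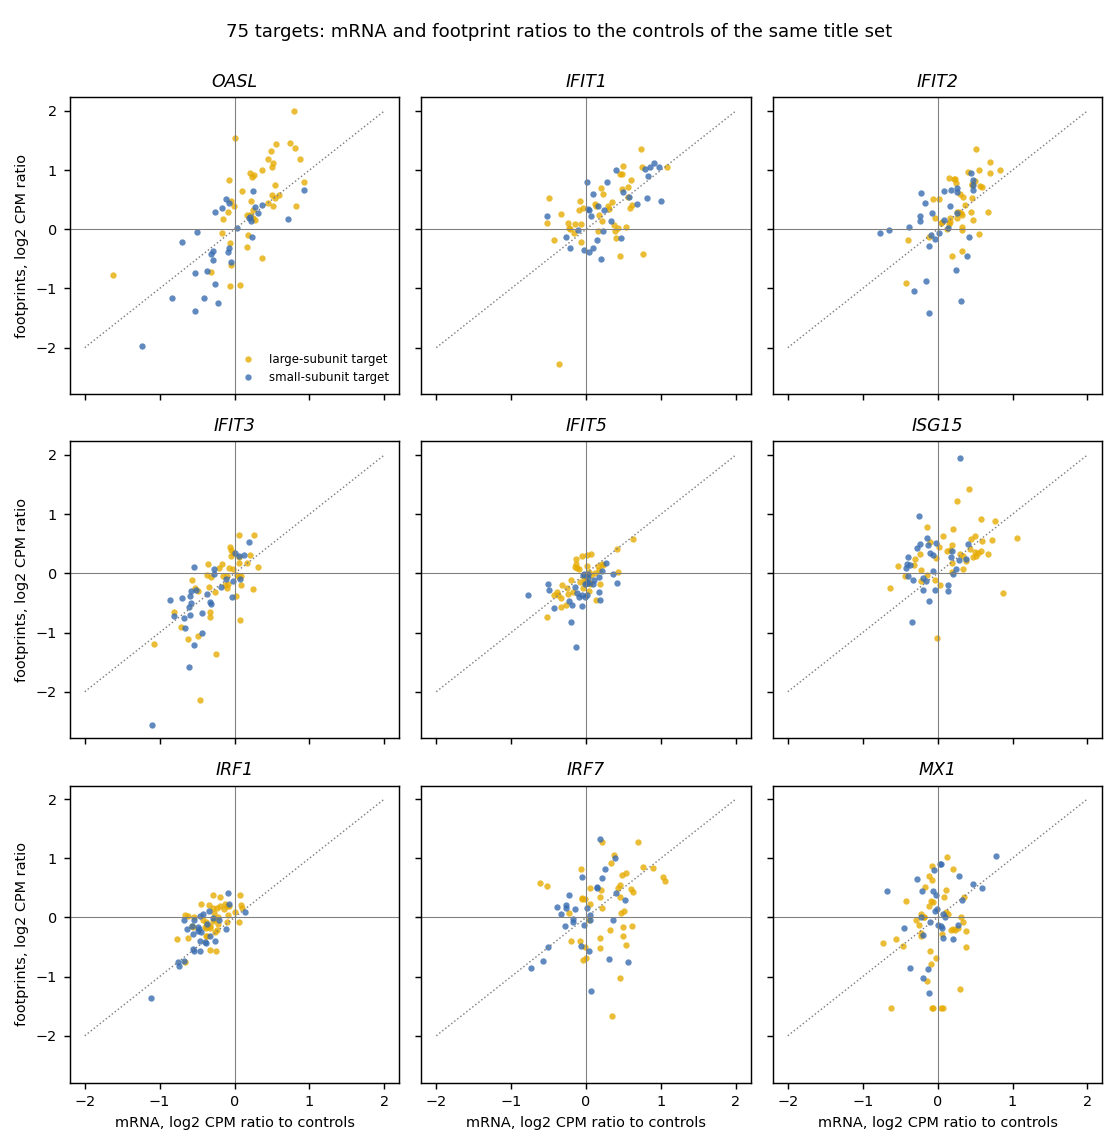
Footprint ratio (vertical) against mRNA ratio (horizontal) of each gene over the 75 targets, both as log2 CPM ratios to the controls of the same title set with a pseudocount of 0.5; yellow points are large-subunit and blue points small-subunit targets, and the dotted line marks equal ratios. OASL points lie along the line with the widest range, IRF1 points lie mostly left of 0, and MX1 libraries with 0 footprint counts line up at -1.54.

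Footprint and mRNA ratios of the 59 unnumbered lysates were correlated, as a description, most in OASL (Pearson r = 0.72, Spearman rho = 0.69), IFIT3 (0.67 and 0.69) and IRF1 (0.63 and 0.60), and least in IRF7 (0.22 and 0.25) and MX1 (0.19 and 0.24). The 2 assays of a point share a lysate. Some knockdowns stood outside all controls of their set in the same direction in both assays. In Ribo-seq alone, 25.9% of all gene-by-target pairs of the unnumbered titles lay above all controls and 25.3% below; of the numbered titles, with both libraries outside, it was 16% each way, and in RNA-seq 12.2% above and 11.3% below. In both assays at once, 13.5% of all pairs lay above and 13% below, over all 75 targets and the genes passing the filter in both. For IFIT1 these were 18 of 75 targets above and none below, of 26 above in RNA-seq and 31 in Ribo-seq. For IRF7 they were 11 above and none below. For IFIT3 they were 15 below and none above. For IRF1, 9 lay below both times, among them RPL28, RPL4, RPL6, RPS19, RPS24, RPS27, RPS27L and RPS29. IFIT2 had 12 above and 1 below, OASL 5 and 2, and IFIT5 3 and 4. MX1 had none above and 1 below (RPL5, with 0 footprint counts), and ISG15 had none either way.

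Correlations between members were mostly weak. Over the 59 unnumbered knockdown libraries, the Pearson r of 36 pairs of members ran from -0.28 to 0.54 with a median of 0.10 in RNA-seq, and from -0.26 to 0.43 with a median of 0.09 in Ribo-seq. These are descriptions over libraries that share a design and differ in depth. The genes whose RNA-seq pattern was most like the members' mean log2 CPM were EEF1A1 (r = 0.67), CSF2RA (0.65), BTG1 (0.64), IGDCC4 (0.64) and CASP4 (0.61), of 11642 compared. In Ribo-seq they were B2M (0.66), OAS1 (0.60), CTSB (0.60), GPX1 (0.59) and INA (0.59), of 10186 compared.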

How the data were processed

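The authors deposited raw, unnormalized counts per gene for the same lysates: exon counts (RNA-seq) and counts in coding sequences (Ribo-seq). The tools used were STAR 2.6.1, cutadapt 1.8.1 and bcl2fastq 2.20.0.422, with the build GRCh38, per the submitters' processing notes; counter, annotation and strand setting: not given in the sources used here. Sample groups came from the titles. The control columns 21_1 and 21_2 named the group only, and the RNA-seq columns of RPS15 carry another leading number than its titles and were matched by target and replicate.

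From the counts, edgeR 4.0.16 (R 4.3.3) fitted quasi-likelihood models with TMM scaling to all genes that reached 1 CPM in 11 or more libraries, with the title set as a term and Benjamini-Hochberg adjustment over all genes tested at 0.05. Comparisons of all knockdowns with control and of the subunits had no term for the target, so repeats of a target counted as separate libraries. DESeq2 1.42.0 and limma 3.58.1 served as alternatives. The scripts were tested on simulated data. The labels call the repeats of 16 targets biological replicates. Columns run in 3 alphabetical runs, read here as a possible batch; RPS16 and controls 21_1 and 21_2 lie outside the run of the other numbered libraries. The members, gene lists and named-gene rule were chosen with earlier results of these data known. Named were all members, the 3 smallest p of each list among those called in RNA-seq, every ligand with a count, the 3 highest and 3 lowest targets per member, and the 5 most similar genes. Some targets and their results are not reported here.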

Additional observations from a re-analysis of the deposited data

Results flagged for a closer look

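Of 36 groups of controls examined (9 genes, 2 assays, 2 title sets), 2 had a library that stood apart; chance gives about 1 in 20. OASL footprints were 4.17 CPM in control 11_2, where the other numbered controls had 0.954 to 1.53 CPM. IFIT5 footprints were 37.8 CPM in control 1, where the other unnumbered controls had 50.3 to 54.4 CPM.

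Differences between large- and small-subunit knockdowns passed the edgeR test of the difference itself in 11 cases, all higher in large-subunit knockdowns. These were 6 of 9 members in RNA-seq, beside 31.6% of all genes (15.2% higher), and 5 of 9 in Ribo-seq, beside 22.1% (10.9% higher). Libraries that share a target counted as separate in this model, so its p values may be too small. In RNA-seq the log2 differences were 0.59 for OASL, 0.32 for IFIT2, 0.28 for IFIT3, 0.41 for ISG15, 0.20 for IRF1 and 0.36 for IRF7. In Ribo-seq they were 0.86 for OASL, 0.37 for IFIT2, 0.33 for IFIT3, 0.23 for IFIT5 and 0.22 for IRF1. RNA-seq of OASL was called within each title set as well; the other members were called in at most 1 set per assay.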

How the results depend on the processing

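RLE scaling, no filter on low counts and DESeq2 left the number of members called unchanged in both comparisons over all libraries. All knockdowns against control gave 0 RNA-seq calls in the numbered titles alone and 1 (IRF1) in the unnumbered titles alone; in Ribo-seq it gave 1 in the numbered titles alone and 1 with the term for the run of columns. Large against small subunit in the numbered titles alone gave 2 RNA-seq calls and 1 Ribo-seq call (IFIT1, with the opposite sign), and in the unnumbered titles alone 3 Ribo-seq calls. Leaving out each control in turn gave 1 to 2 calls in RNA-seq, 0 to 0 in Ribo-seq and 0 to 0 for translation efficiency. With 1 numbered control left out, the 16 targets gave 15 to 26 calls in all in RNA-seq and 26 to 33 in Ribo-seq. The shares of all genes called with a control left out are not given here. In the main fit, 23.3% and 29.3% of all gene-by-target pairs were called. With 1 library of every target left out, the fits had fewer samples and gave 0 and 0 calls in RNA-seq, 0 and 1 in Ribo-seq, and 0 for the differences among targets.

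The replicate numbers were checked for pairing over 120 pairs of targets. The deviations of same-numbered libraries correlated at -0.64 to 0.522 in RNA-seq and -0.319 to 0.461 in Ribo-seq. The medians were -0.032 and 0.0408, and 35 and 28 pairs had an r over 0.1. The numbers marked no pairing common to all targets. Whether some targets share more than a number was not tested. A fit with the number as a replicate block drops controls 21_1 and 21_2, because their columns carry no number. It gave 26 RNA-seq and 33 Ribo-seq calls, and differences among targets were called for 8 and 9 members. The share of all genes called in that fit is not given here. In the main fit, differences among targets were called for 73.6% and 78.8% of all genes. With the lysate as the block, translation efficiency gave 0 members. Without RPS16 and controls 21_1 and 21_2, an alternative added after seeing the data, there were 26 and 31 calls. The share of all genes called there is not given here either.

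Changes of sign concerned values that were not called with all libraries in the main model. In RNA-seq against control, without the set term IFIT5 was 0.0167, IRF7 -0.126 and MX1 -0.0001958; with the run term IFIT5 was 0.0228 and IRF7 -0.0362; IRF7 was -0.18 in the numbered titles and MX1 -0.0533 in the unnumbered. Leaving out 1 control, IFIT5 ran from -0.133 to 0.0008063, IRF7 from -0.0225 to 0.155 and ISG15 from -0.0126 to 0.200. In Ribo-seq, MX1 was -8.078e-05 with RLE, -0.00397 with no filter, -0.000496 in DESeq2, -0.0970 without the set term, -0.10 with the run term and -0.167 in the unnumbered titles, and ran from -0.1246 to 0.139 without 1 control; OASL was -0.0326 in the numbered titles. Between subunits in RNA-seq, without the set term IFIT1 was 0.118 and MX1 -0.175, and in the unnumbered titles IFIT1 was 0.0948, IFIT5 -0.0489 and MX1 -0.0549. In Ribo-seq, without the set term IFIT1 was 0.11 and IRF7 -0.0300, and in the unnumbered titles IFIT1 was 0.171. The causes were not tested. All genes called against control fell from 4744 to 1880 and 2089 within the title sets in RNA-seq, and from 3413 to 762 within the unnumbered titles in Ribo-seq. Low counts limit OASL, IFIT1 and MX1 mRNA most.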
